A study of Homo sapiens with 2 samples.

Results

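Genes of the BCL2 family, the regulators of mitochondrial apoptosis, were examined in PC9 cells that express TAZ4SA, an active mutant form of the co-activator TAZ, and in control PC9 cells. The members were 10 genes chosen by symbol: the BH3-only genes BCL2L11, BBC3, PMAIP1, BMF, BID and BIK, the anti-apoptotic genes BCL2L1 and MCL1, and the effector genes BAX and BAK1. All 10 were found among the 16642 genes of the deposited table, and all 10 passed the minimum level, a mean normalized count of at least 20, which 14074 genes reached. PC9 is an established human cell line from a lung adenocarcinoma. The TAZ4SA library came from PC9 cells in which TAZ4SA was expressed from a doxycycline-inducible lentiviral vector, and the control library came from the PC9 line labelled as control. The protocol, the same text for both samples, gives lentiviral Tet-On vectors and induction with 50 ng/mL doxycycline for 24 h. It does not say whether the control cells carried the empty construct vector or were given doxycycline. Each group was 1 library, so no difference could be tested, every bracketed range below is a 95% interval of counting error, and the spread between cultures is unknown.

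Mitochondrial apoptosis is set by binding among the proteins of this family. BAX and BAK1 are effectors that form pores in the outer mitochondrial membrane and release cytochrome c. Anti-apoptotic proteins such as BCL-XL, the long product of BCL2L1, and MCL1 hold the effectors and the BH3-only proteins in check through a groove that binds the BH3 helix. BH3-only proteins sense damage or lost growth signals and either fill that groove or activate the effectors directly. In lung adenocarcinoma cells driven by mutant EGFR, such as PC9, BIM (the product of BCL2L11) is known as a main mediator of death after EGFR inhibition.

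Recovered reads came to 29668388 for TAZ4SA and 47684754 for control cells. WWTR1, the gene of TAZ, had 15628 normalized counts in TAZ4SA cells and 4933 in control cells, a ratio of 3.17 (3.07 to 3.27); reads of the construct and of the endogenous gene cannot be told apart in this table. All 6 epithelial markers examined were measured in both libraries. Of the lung lineage markers, SFTPB was low, at 21.8 normalized counts in TAZ4SA cells and 81.0 in control cells. NAPSA was below the minimum level, and NKX2-1 and SFTPC were not found by symbol in the deposited table. Among markers of other cell types, 1 of 6 fibroblast, 0 of 5 leukocyte and 1 of 4 endothelial genes reached the minimum; these were COL1A1, at 490.3 normalized counts in TAZ4SA cells and 413 in control cells, and CDH5, at 1362 in TAZ4SA cells and 1589 in control cells. The part of such cells in the results was not tested.

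Among the 10 members PMAIP1 differed most between the libraries, and the ratios of the others ran from 0.872 to 1.13. Of all measured genes, 11.8% had a larger log2 ratio in absolute size than PMAIP1. At that share, 1 such gene among 10 says nothing particular about the members. A gene was called if its normalized count differed at least 1.5-fold and its counting interval excluded a ratio of 1. By this rule 0 of the 10 members were higher in TAZ4SA cells, where 4.19% of all measured genes were, and 0 were lower, where 4.47% were. At such shares 0 of 10 says nothing particular about the members. The median log2 ratio, TAZ4SA over control, was -0.02 over the 10 members and 0.00019 over all measured genes. Among the members 4 had log2 ratios above 0 and 6 below. Only PMAIP1 had an interval wholly above a ratio of 1, as 24.5% of measured genes did, and only BCL2L1 had an interval wholly below it, as 25.2% did. For the other 8 members the interval included 1. At a lower threshold, a log2 ratio of 0.32, 1 member, PMAIP1, was higher, beside 8.13% of measured genes, and 0 were lower, beside 9.94%; at 2-fold 0 members were called, beside 1.93% of measured genes higher and 1.61% lower.

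**Figure D1:**
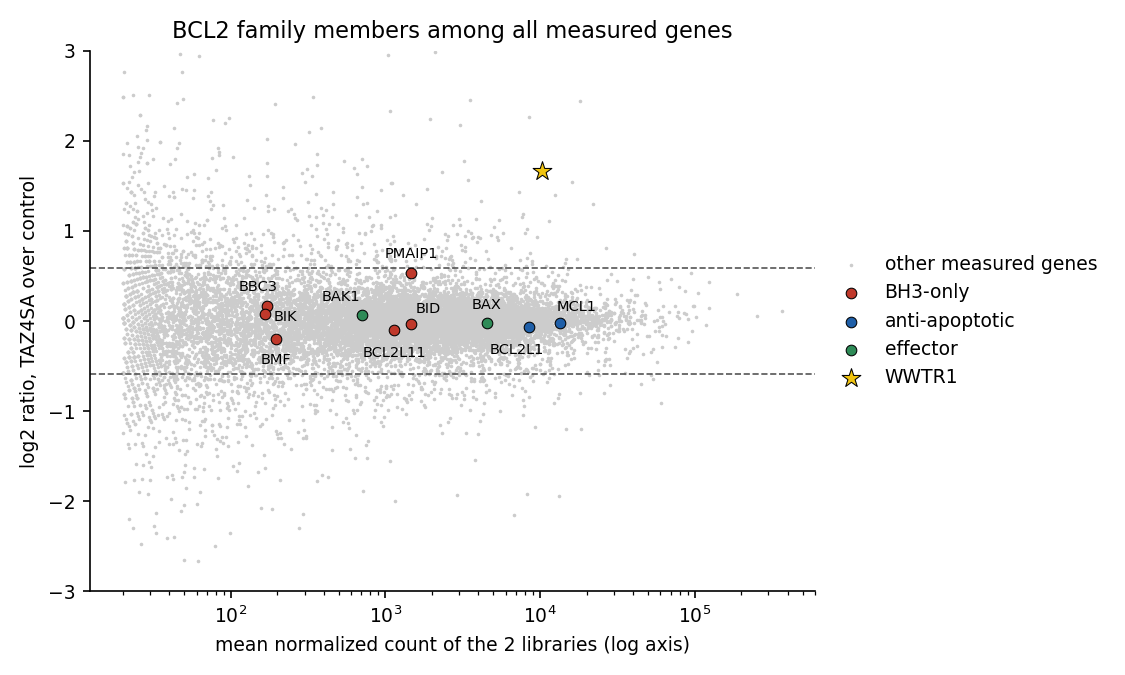
Log2 ratio (TAZ4SA over control, pseudocount 1) against the mean normalized count of the 2 libraries, on a log axis, for all measured genes (grey), the 10 members coloured by class and WWTR1 (star); dashed lines mark 1.5-fold, and 35 measured genes lie beyond the plotted range. PMAIP1 sits just under the upper line at 0.54, the other 9 members lie between -0.20 and 0.17, and WWTR1 stands at 1.66.

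PMAIP1 (ENSG00000141682) encodes NOXA, a small BH3-only protein that binds MCL1 and promotes its degradation. It had 1730.5 normalized counts in TAZ4SA cells, from 1193 reads, and 1193 normalized counts in control cells, from 1326 reads. The ratio was 1.45 (1.34 to 1.57), or 0.54 on the log2 scale, so the counting interval lay above 1 but the gene missed the 1.5-fold call. Of all measured genes, 94.3% had a lower log2 ratio, and 11.8% had a larger one in absolute size. The difference lay outside the range of the other 9 members, whose ratios ran from 0.872 to 1.13. In bulk RNA a higher level per cell cannot be told apart from a larger share of cells expressing the gene.

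Promoter windows of the members were searched for motifs, and those of PMAIP1 and BBC3, the only members with a match, are shown. The windows are the 250 bases before the transcription start on the strand of the gene, from RefSeq on GRCh38.p14, whereas the submitters' notes for the table name GRCh37; 8 of the 10 members matched an entry by symbol, with 14 windows in all, and BIK and MCL1 did not. The following cores were searched on both strands, with no overlapping matches in these windows: GGAATG, the core bound by TEAD factors, through which TAZ acts on DNA; TGANTCA, the AP-1 site; and TGACGT, the core of the cyclic AMP response element bound by ATF and CREB factors. These cores were chosen with the sequences in view. Matches are in capitals.
PMAIP1, chr18:59899746-59899995, plus strand: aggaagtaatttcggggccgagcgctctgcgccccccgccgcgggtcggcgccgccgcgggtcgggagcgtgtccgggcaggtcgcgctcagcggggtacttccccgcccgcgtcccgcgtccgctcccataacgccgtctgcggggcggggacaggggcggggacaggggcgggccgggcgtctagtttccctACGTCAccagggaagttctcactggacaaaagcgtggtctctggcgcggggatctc
BBC3, chr19:47232668-47232917, minus strand: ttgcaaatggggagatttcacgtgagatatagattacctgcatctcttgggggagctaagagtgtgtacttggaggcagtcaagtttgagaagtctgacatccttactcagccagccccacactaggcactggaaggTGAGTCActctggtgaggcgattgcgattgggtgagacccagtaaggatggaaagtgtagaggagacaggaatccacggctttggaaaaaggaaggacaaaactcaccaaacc
The PMAIP1 window held 1 match, ACGTCA, the reverse complement of the response element core, at -56 to -51 from the start. The BBC3 window held 1 AP-1 match, TGAGTCA, at -113 to -107. The TEAD core was found in 0 of the 14 member windows. Some windows overlap, as those of BID do, and sequence outside the 250 bases was not searched, so no conclusion is drawn from this count. Among all 35116 RefSeq windows of this length, 7.1% held the response element core, 6.57% the AP-1 site and 11.9% the TEAD core. A match in a single member is therefore only a description, and binding was not tested.

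The other 5 BH3-only members differed little. BCL2L11 (ENSG00000153094), the BIM gene, had 1107 normalized counts in TAZ4SA cells and 1181 in control cells, a ratio of 0.937 (0.856 to 1.03). BID (ENSG00000015475), whose protein is cut by caspase 8 and links death receptors to mitochondria, stood at 1452 in TAZ4SA cells and 1482 in control cells, a ratio of 0.980 (0.905 to 1.06). At these levels the interval of each gene was narrow and included 1. The remaining genes were less abundant and less precisely measured. BBC3 (ENSG00000105327), which encodes PUMA, a protein that binds all main anti-apoptotic members, had 181 normalized counts in TAZ4SA cells and 161 in control cells, a ratio of 1.13 (0.889 to 1.42). BIK (ENSG00000100290), whose protein sits in the membrane of the endoplasmic reticulum, had 169.7 in TAZ4SA cells and 161 in control cells, a ratio of 1.05 (0.827 to 1.34). BMF (ENSG00000104081), whose protein is held by the dynein light chain DYNLL2 until released, had the lowest ratio among the members, 183 normalized counts in TAZ4SA cells and 209.6 in control cells, a ratio of 0.872 (0.696 to 1.09). These 3 rest on 117 to 126 reads in TAZ4SA cells and 179 to 233 in control cells, and differences within their intervals were not detectable at this depth. Of the exonic bases of BCL2L11, 11.9% are shared with the opposite-strand gene MIR4435-2HG in GENCODE 29, and 9.38% of those of BMF with BMF-AS1; the sources used here do not say whether counting used strand.

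The anti-apoptotic and effector members lay close to a ratio of 1. MCL1 (ENSG00000143384), which encodes a short-lived protein that many lung cancer cells depend on, had 13262 normalized counts in TAZ4SA cells and 13490.1 in control cells, a ratio of 0.983 (0.958 to 1.01). BCL2L1 (ENSG00000171552) had 8350.6 in TAZ4SA cells and 8731 in control cells, a ratio of 0.956 (0.926 to 0.988). The interval excluded 1 on 5757 TAZ4SA reads and 9704 control reads, but the difference was -0.06 on the log2 scale, and 76.3% of measured genes had a larger one in absolute size. In GENCODE 29, 42.8% of the exonic bases of BCL2L1 are also covered by the opposite-strand gene ABALON. The effector BAX (ENSG00000087088) had 4470.5 normalized counts in TAZ4SA cells and 4545 in control cells, a ratio of 0.984 (0.940 to 1.03), and BAK1 (ENSG00000030110), its partner effector, had 724 in TAZ4SA cells and 693 in control cells, a ratio of 1.04 (0.932 to 1.17). For both, the counting interval included 1. GENCODE 29 also lists the processed pseudogenes BAK1P1 and BAK1P2, and how reads shared with such copies were counted is not given.

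**Figure D2:**
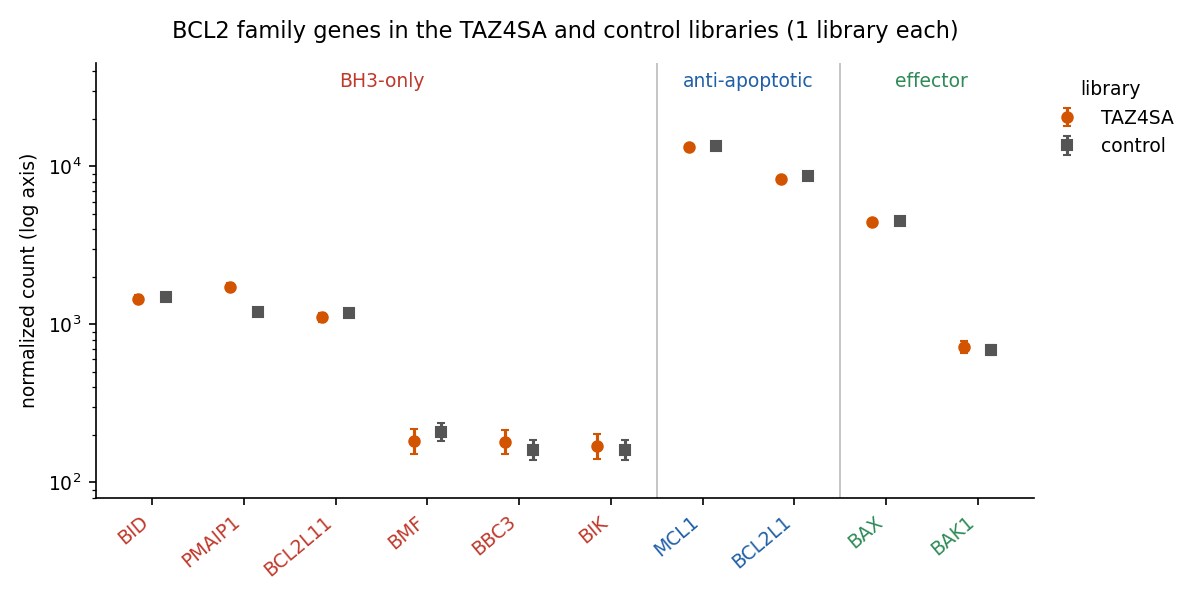
Normalized counts on a log axis of the 10 members in TAZ4SA cells (circles, left of each pair) and the control library (squares, right), by class; bars are 95% Poisson intervals of counting error, and each group is 1 library. Only the PMAIP1 pair is clearly separated, at 1730.5 in TAZ4SA cells and 1193 in control cells, while MCL1 is the highest pair and BMF, BBC3 and BIK the lowest.

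The depth was enough to bound the ratios of these genes between the 2 libraries. For 9 of the 10 members the whole counting interval lay inside 1.5-fold in either direction, its bounds reaching from 0.696 for BMF to 1.42 for BBC3. The same held for 71.9% of all measured genes. The interval of PMAIP1 alone extended past 1.5. These bounds describe the 2 libraries and do not cover variation between cultures.

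**Figure D3:**
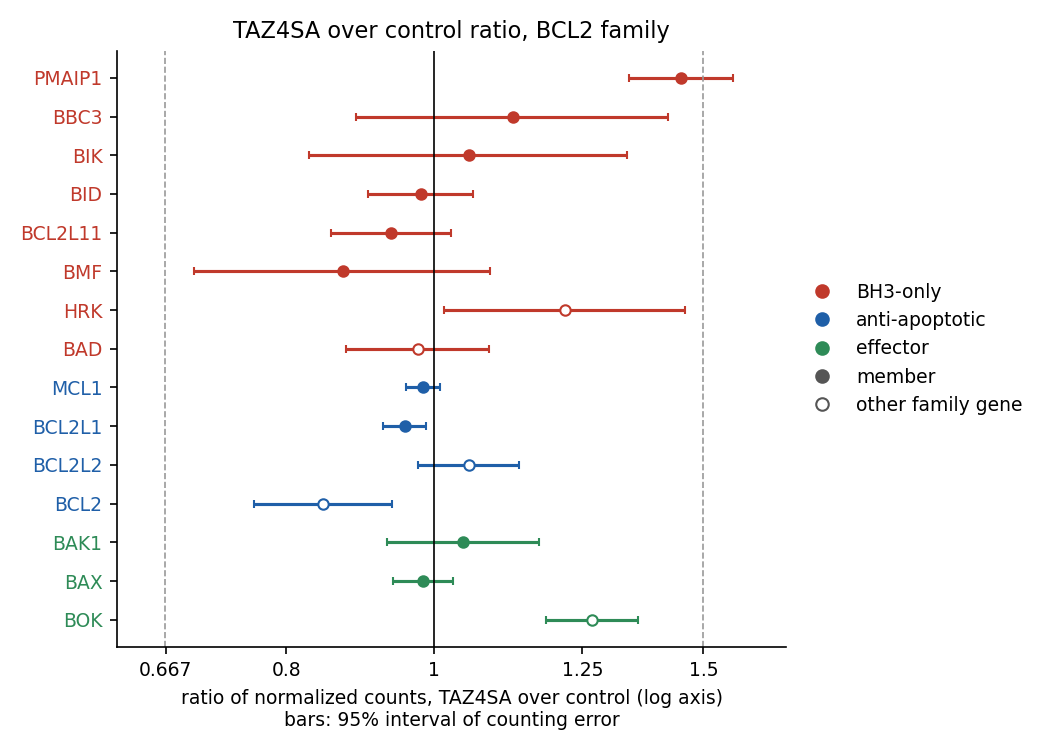
Ratio of normalized counts, TAZ4SA over control, on a log axis, for the 10 members (filled) and the 5 other family genes in the table (open), coloured by class; bars are 95% intervals of counting error and dashed lines mark 1.5-fold. PMAIP1 lies highest at 1.45, BOK at 1.27 and HRK at 1.22, and BCL2 lies lowest at 0.846.

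The comparison of the classes turned on PMAIP1 as well. The median log2 ratio was 0.02 for the 6 BH3-only members, -0.04 for the 2 anti-apoptotic members and 0.02 for the 2 effectors, and in each class 0 members were called. When the normalized counts of a class were summed, the BH3-only genes reached 4823 in TAZ4SA cells and 4388 in control cells, a ratio of 1.10 (1.05 to 1.15). Without PMAIP1 the sum was 3093 in TAZ4SA cells and 3195 in control cells, a ratio of 0.968 (0.917 to 1.02), so the higher BH3-only sum rested on that gene. The anti-apoptotic sum was 21613 in TAZ4SA cells and 22221 in control cells, a ratio of 0.973 (0.953 to 0.993). The effector sum was 5194 in TAZ4SA cells and 5238 in control cells, a ratio of 0.992 (0.951 to 1.03). None of the sums differed by as much as 1.5-fold.

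A ratio between 2 genes within a library does not depend on how the libraries were scaled, so each pro-apoptotic member was set against BCL2L1 and against MCL1, 16 ratios in all. For every 100 reads of MCL1, PMAIP1 had 13.0 reads in TAZ4SA cells and 8.84 in control cells, which is 1.48 times as many (1.36 to 1.60). For every 100 reads of BCL2L1 it had 20.7 in TAZ4SA cells and 13.7 in control cells, or 1.52 times as many (1.39 to 1.65). The 16 ratios reuse the reads behind the member ratios given above, so they are not separate evidence. The intervals of both PMAIP1 ratios excluded 1, and those of the other 14 ratios included it. Those 14 ranged from 0.887, for BMF against MCL1, to 1.18, for BBC3 against BCL2L1. BAX against MCL1 was nearest to no difference, with 33.7 reads of BAX for every 100 of MCL1 in both libraries and a ratio of 1.001 (0.950 to 1.05). Set against the other 5 BH3-only members, PMAIP1 was higher in every case, from 1.29 times (1.005 to 1.65) relative to BBC3 to 1.66 times (1.31 to 2.11) relative to BMF, and all 5 intervals excluded 1. PMAIP1 was singled out for these 5 ratios after its value had been seen.

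**Figure D4:**
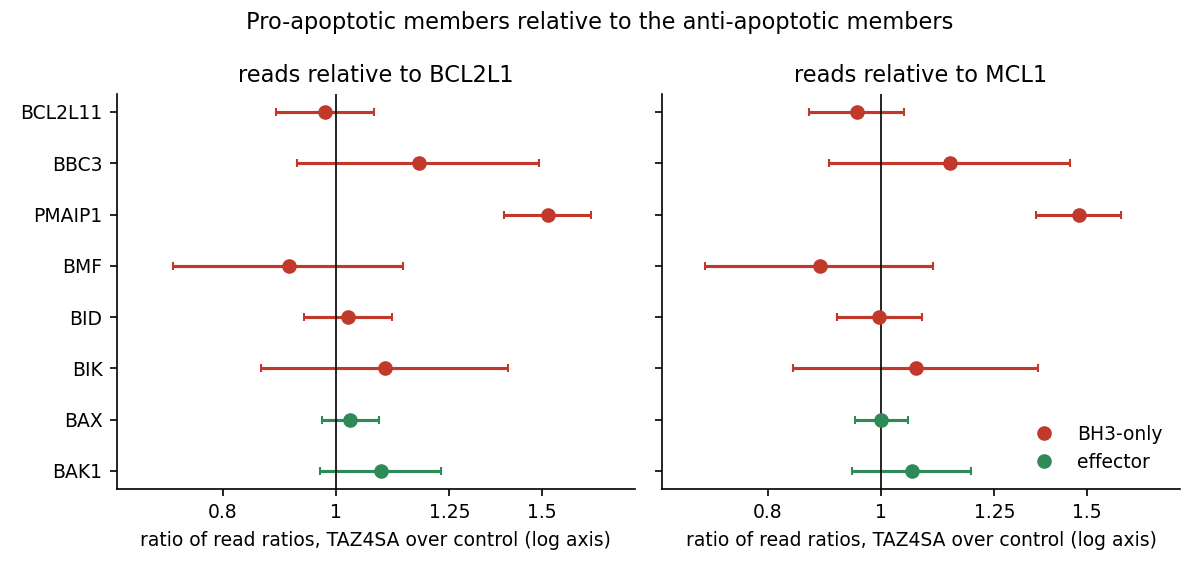
Reads of each pro-apoptotic member relative to BCL2L1 (left) and to MCL1 (right), TAZ4SA over control, on a log axis; points are ratios of the 2 read ratios, coloured by class, and bars are exact 95% intervals of counting error. PMAIP1 stands at 1.52 and 1.48 with intervals above 1, and every other interval crosses 1.

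Levels of different genes were compared as normalized counts per kilobase of annotated exon. MCL1 had 3247 per kilobase in TAZ4SA cells and 3302 in control cells, BAX had 3166 with TAZ4SA and 3219 in control cells, and BCL2L1 had 2921 with TAZ4SA and 3054 in control cells. These 3 genes were far above all other members, and their order was the same in both libraries, but it depended on the length used: per kilobase of the principal transcript BAX stood first, at 5637 in TAZ4SA cells and 5731 in control cells. PMAIP1 was next in both libraries, at 824 per kilobase in TAZ4SA cells and 568 in control cells. BID followed at 517 with TAZ4SA and 528 in control cells, then BAK1 at 327 with TAZ4SA and 313 in control cells. BCL2L11, at 182 with TAZ4SA and 194 in control cells, and BIK, at 178 with TAZ4SA and 169 in control cells, were close neighbours, but per kilobase of the principal transcript BCL2L11 stood at 727 in TAZ4SA cells and 776 in control cells, below PMAIP1 (888) with TAZ4SA and above it (612) in control cells. BBC3, at 86.6 with TAZ4SA and 77.0 in control cells, and BMF, at 37.2 with TAZ4SA and 42.7 in control cells, were the lowest by either length. Of the summed level per kilobase of all 10 members, PMAIP1 made up 7.18% in TAZ4SA cells and 4.96% in control cells, the BH3-only class 15.9% with TAZ4SA and 13.8% in control cells, and the anti-apoptotic class 53.7% with TAZ4SA and 55.4% in control cells. Per kilobase of the principal transcript the anti-apoptotic class made up 43.6% with TAZ4SA and 44.8% in control cells, the effector class 39.7% with TAZ4SA and 40.1% in control cells, and the BH3-only class 16.7% with TAZ4SA and 15.1% in control cells.

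Of 5 measured family genes outside the 10 members, 0 were called in either direction, where 4.19% of all measured genes were called higher and 4.47% lower, a share at which 0 of 5 says nothing particular about them. The effector-like gene BOK had 2122 normalized counts in TAZ4SA cells and 1674 in control cells, a ratio of 1.27 (1.18 to 1.36). HRK, a BH3-only gene best known from neurons, had 309 in TAZ4SA cells and 254 in control cells, a ratio of 1.22 (1.01 to 1.46). BCL2 itself, the anti-apoptotic founder of the family, had 817 in TAZ4SA cells and 965 in control cells, a ratio of 0.846 (0.762 to 0.938). These were the 3 whose intervals excluded 1, 2 of them above and 1 below, beside 24.5% of all measured genes above and 25.2% below. The anti-apoptotic gene BCL2L2 stood at 1612 in TAZ4SA cells and 1530 in control cells (ratio 1.05, 0.976 to 1.14) and the BH3-only gene BAD at 795 in TAZ4SA cells and 815 in control cells (ratio 0.975, 0.875 to 1.09). BCL2A1 and BCL2L10 were not found by symbol in the deposited table. In GENCODE 29 BOK shares exonic bases with the opposite-strand gene BOK-AS1, BAD with GPR137, and BCL2L2 with the readthrough gene BCL2L2-PABPN1. A further list held genes related to the family that have another or debated role. Of its 5 measured genes, 0 were called, and 3 had intervals above 1 and 0 below, beside the same 24.5% and 25.2%. Their median log2 ratio was 0.08. The mitophagy receptor gene BNIP3 was highest, at 828 normalized counts in TAZ4SA cells and 685 in control cells, a ratio of 1.21 (1.08 to 1.35). BCL2L14, of the same list, was below the minimum level, at 7.25 normalized counts in TAZ4SA cells and 22.5 in control cells.

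Genes of the apoptosis machinery around the family differed in both directions, mostly by less than 1.5-fold. In the lists reported here, 68 genes outside the members were listed, of which 60 were in the table and 58 reached the minimum level; 1 of them was called higher, beside 4.19% of all measured genes, and 0 lower, beside 4.47%. At such shares a list of this size holds few called genes, and nothing particular to the lists is read from these counts. By interval, 21 of the 58 lay above 1, beside 24.5% of all measured genes, and 20 below, beside 25.2%. Of 11 measured genes of the apoptosome and caspases, 0 were called in either direction, near the share over all genes, 3 had intervals above 1 and 3 below, and the median log2 ratio was 0.07. The caspase gene CASP6 had 439.5 normalized counts in TAZ4SA cells and 635 in control cells, a ratio of 0.692 (0.603 to 0.793). APAF1, the scaffold of the apoptosome, had a ratio of 0.843 (0.746 to 0.950). CYCS, the gene of cytochrome c, had 15387 normalized counts in TAZ4SA cells and 13451 in control cells, a ratio of 1.14 (1.12 to 1.17), and DIABLO, whose protein binds inhibitors of apoptosis, had a ratio of 1.16 (0.896 to 1.49). Of 5 measured genes of the inhibitor of apoptosis family, 1 was called higher, beside 4.19% of all measured genes, and 0 lower, beside 4.47%. By interval, 3 lay above 1 and 1 below, beside 24.5% and 25.2%. The called gene was BIRC3, the gene of cIAP2. It had 1633 normalized counts in TAZ4SA cells and 566 in control cells, a ratio of 2.89 (2.62 to 3.19). Its close paralog BIRC2, the gene of cIAP1, had 3725 in TAZ4SA cells and 2760.5 in control cells, a ratio of 1.35 (1.28 to 1.42). BIRC6 had a ratio of 1.10 (1.07 to 1.14), and XIAP was lower in TAZ4SA cells, at 0.953 (0.919 to 0.989).

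Death receptor genes lay on both sides of no difference. Of 11 measured, 0 were called, again near the 4.19% and 4.47% over all genes. By interval, 3 lay above 1 and 6 below, beside 24.5% and 25.2% of all measured genes, and the median log2 ratio was -0.09. CFLAR, which encodes the caspase 8 inhibitor FLIP, had 1355 normalized counts in TAZ4SA cells and 1135 in control cells, a ratio of 1.19 (1.10 to 1.30). The receptor gene TNFRSF1A had 4427 in TAZ4SA cells and 5305 in control cells, a ratio of 0.834 (0.799 to 0.872), and the adaptor gene TRADD 703.5 in TAZ4SA cells and 838 in control cells, a ratio of 0.840 (0.751 to 0.938). Among 5 mitochondrial and cytoskeletal binding partners of the family, 0 were called. Of these partners, 1 had an interval above 1 and 3 below, beside the same 24.5% and 25.2%, and the median was -0.06. VDAC1, a channel of the outer mitochondrial membrane, had 10959 normalized counts in TAZ4SA cells and 13217 in control cells, a ratio of 0.829 (0.806 to 0.852). DYNLL1, a dynein light chain that binds BIM, had 5660 in TAZ4SA cells and 6400.0 in control cells, a ratio of 0.884 (0.850 to 0.920). VDAC2, which recruits BAK1 and BAX, had a ratio of 1.09 (1.01 to 1.17), the only one of the 5 with a log2 ratio above 0, and VDAC3 had a ratio of 0.958 (0.916 to 1.003).

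**Figure D5:**
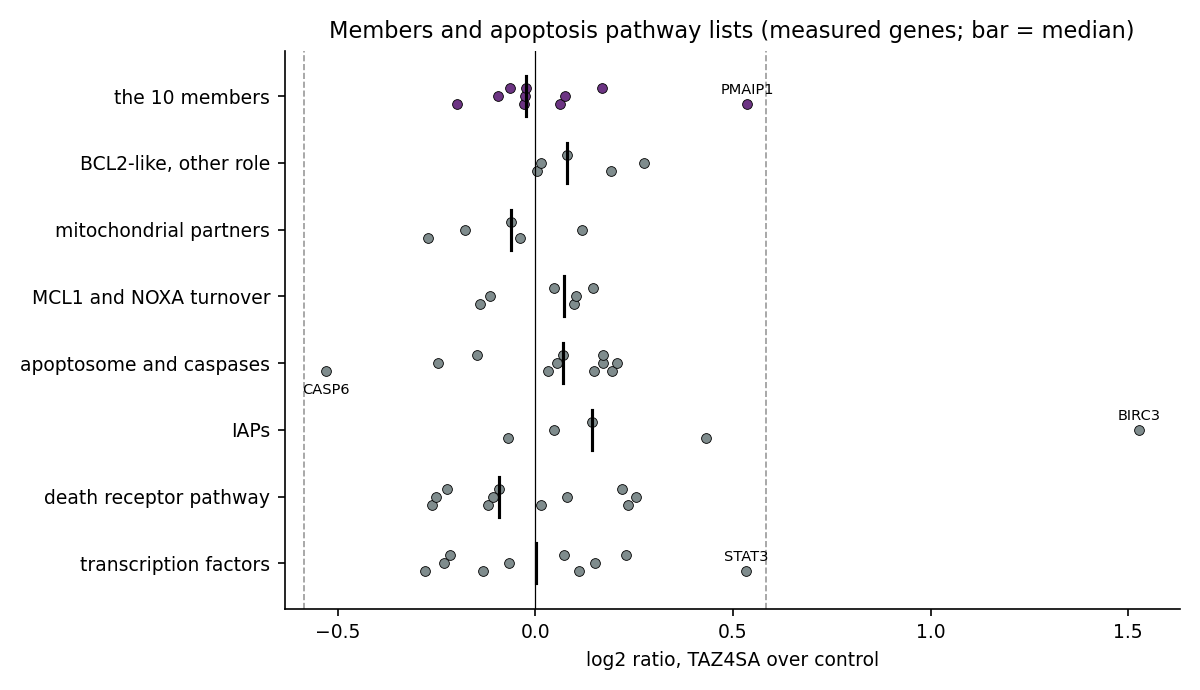
Log2 ratio, TAZ4SA over control, of the 10 members and of the measured genes of lists of apoptosis-related genes; each point is a gene, black bars are medians and dashed lines mark 1.5-fold. BIRC3 at 1.53 lies beyond the upper line, 0 genes lie beyond the lower line, and PMAIP1 at 0.54 is the highest of the members.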

How the data were processed

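RNA from 1 TAZ4SA and 1 control PC9 library was sequenced. The submitters' processing notes name the GRCh37 build and, with no versions or roles, HTSeq, STAR, DESeq2 and Trim Galore. The deposited columns hold a signal value, gene read counts that the authors divided by 1 size factor per library: 100% of values were whole multiples of the column's step within 0.01 reads. The factors were 0.689 (TAZ4SA) and 1.11 (control), and multiplying by them recovered the reads. The log2 fold change column that the authors deposited was compared with the columns' log2 ratio without a pseudocount. For the 16584 genes above 0 in both libraries it matched to within 0.000136, and it was not used further.

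Ratios are TAZ4SA over control of the normalized counts; log2 ratios use a pseudocount of 1, which understates differences of low genes. Intervals are exact conditional binomial 95% intervals from the recovered reads, and those of read ratios are exact intervals of the odds ratio. Neither covers more than counting error. Both treat reads as independent molecules, which PCR reads are not, so they may be too narrow even for counting error. No p-value was computed, as each group was 1 library. The members, classes and lists were chosen with earlier results of these data known. Named genes were all members, WWTR1 and all other family genes. From each list, genes were named among the up to 4 whose log2 ratios were largest in size, and not all of these are given. After the results were known, and not because of them, 3 single genes, of which 0 were called, and 1 list, with 3 of its 12 measured genes called higher and 0 lower, were left out of the lists and are not reported here. Exonic lengths came from GENCODE 29 (GRCh38) by gene ID, and promoter windows from RefSeq by symbol. The calculations were tested on simulated counts. Python 3.11.15 with scipy 1.17.1, pandas 2.3.3 and numpy 2.4.6 was used; alternative scaling factors came from DESeq2 1.42.0 and edgeR 4.0.16 in R 4.3.3. Alternatives covered scaling, pseudocount, filter, fold threshold and class summary.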

Additional observations from a re-analysis of the deposited data

How the results depend on the processing

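The log2 ratios of the 10 members stayed within their counting intervals and kept their signs under all 70 alternatives run, which were 4 scalings and 3 pseudocounts for each; PMAIP1 ranged from 0.53 to 0.54. The scalings shifted the median of all measured genes by at most 0.00438. All 31 alternative class summaries lay between the medians of the members' lower and upper interval bounds. That range is not an interval of the class median. Some alternatives could not differ: the mean of 2 members equals their median, and no member had a mean count below 100. Values near 0 changed sign. The BH3-only median was -0.03 without PMAIP1, an alternative chosen after seeing the data, and the effector value was -0.01 from summed counts. The number of members higher was 1, PMAIP1, at a threshold of 0.32 on the log2 scale. By construction the 590 genes higher and 629 lower became 1144 and 1399 at that lower threshold, 272 and 226 when a 2-fold difference was required, and 329 and 387 when the mean had to reach 100. With Wald intervals, again 2 of 16 read ratios excluded 1. Depth limits BMF, BBC3 and BIK most. No paired analysis was possible because there were no replicates to pair, and none could be left out.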

Other observations

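Transcription factors known to control family genes differed in both directions. Of 10 measured, 4 had counting intervals above a ratio of 1, beside 24.5% of all measured genes, and 4 below, beside 25.2%. At least 1.5-fold higher were 0, beside 4.19% of all measured genes, and lower 0, beside 4.47%, so these counts say nothing particular about the list. STAT3, an activator of MCL1 and BCL2L1, was highest, at 9684 normalized counts in TAZ4SA cells and 6692 in control cells, a ratio of 1.45 (1.40 to 1.496). MYC had a ratio of 1.17 (1.14 to 1.20), FOXO1 of 0.824 (0.760 to 0.892) and E2F1 of 0.852 (0.785 to 0.924). ATF4, named here outside the rule for named genes and after its value was seen, had a ratio of 1.05 (1.02 to 1.08). TP73 was below the minimum level. Genes that act on the turnover of MCL1 and NOXA gave 0 of 6 called, near the same shares over all genes, with 2 intervals above 1 and 2 below and ratios from 0.907 (0.854 to 0.964) for the ligase gene MARCH5 to 1.11 (1.08 to 1.14) for the ligase gene HUWE1.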
